A study of Drosophila melanogaster with 3 samples.

Results

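Serpins and the serine proteases of the Toll and melanization cascades were compared across 3 RNA libraries from eye-antennal discs (EADs). Members were taken by symbol from the deposited expression table, by a rule that uses no measured value, although earlier results of these data were known when it was set. All genes whose symbol is *Spn* followed by a digit, together with *nec*, made up 28 serpins, and *modSP*, *grass*, *SPE*, *psh*, *CG6361*, *ea*, *snk*, *gd*, *ndl*, *MP1*, *Sp7* and *Ser7* made up 12 proteases. These are 40 of the 15603 genes listed. In present nomenclature *CG6361* is *Hayan*, *Spn1* is *Spn42Dd*, *Spn4* is *Spn42Da*, *Spn5* is *Spn88Ea*, *Spn6* is *Spn55B* and *Spn28D* is *Spn28Dc*.

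All libraries came from wandering larvae at Day 6, with 50 discs given in the labels for each and batch 1 for all, and each condition had 1 library. The tumor library holds GFP+ cells of RasV12, scrib-/- clones. In these animals ey-flp drives recombination at Frt82B in the early eye-antennal primordium, so that cells homozygous for scrib2 lose tubGal80 and, through Act>y+>Gal4, express UAS-RasV12 and UAS-GFP. The tumor microenvironment (TME) library holds the GFP- cells of these same discs, which can be any cell outside the labeled clones. The control library holds GFP+ cells of GMRGFP discs, whose labels list neither RasV12 nor scrib2, and in which GMR-Gal4 labels cells behind the morphogenetic furrow, where the retina differentiates. Labeled cells of tumor and control therefore differ in region as well as genotype, and the effects of these cannot be told apart. Cells were sorted by FACS per the labels, the tumor animals being y,w.

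Clip-domain proteases are secreted as inactive zymogens that cleave and activate one another in order. Chains of them end either in cleavage of Spätzle (Spz), the ligand of the Toll receptor, or in activation of prophenoloxidase, the enzyme that makes melanin at wounds and around microbes. Serpins are suicide inhibitors. The target protease cuts an exposed loop of the serpin and stays bound to it, so that each serpin molecule can be used a single time. In the fly, loss of a serpin can therefore release Toll signaling or melanization with no infection. Not all of the 12 proteases carry a clip domain. ModSP and Nudel, for example, are modular proteases of another architecture.

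Levels are FPKM (fragments scaled to transcript length and library size), so that genes can be compared with one another. Each condition is a lone library, so the variation between preparations is unknown and no difference could be tested. Estimated depths, read from the steps of low FPKM values, were 1841216 (tumor), 11016727 (TME) and 1765451 (control) fragments. The range in parentheses after a ratio is its exact 95% Clopper-Pearson interval, which reflects the counting of fragments and nothing else. In a comparison, a gene is called higher or lower where its larger level exceeds 5 FPKM and is at least 2 times the smaller.

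Defining genes of the tissue were present in all 3 libraries, with all 6 eye disc genes (*ey*, *toy*, *so*, *eya*, *dac*, *gl*) above 5 FPKM and summed levels of 313 (tumor), 284 (TME) and 193 (control) FPKM. The 7 hemocyte genes summed to 30.7, 330 and 346 FPKM in the same order, and *crq* alone made 21.4 FPKM of the tumor value. All 5 neuronal genes were called lower in tumor and TME than in control, among them *elav* (6.79, 7.90 and 57.3 FPKM). The 6 fat body genes summed to 0.716, 2.59 and 53.0 FPKM. Of the fat body genes 4 were listed at 0 in the tumor (*Lsp1alpha*, *Lsp1beta*, *Fbp1* and *Fbp2*), and no hemocyte or neuronal gene was at 0 in any library. In bulk RNA, fewer cells of a type and less RNA per cell cannot be told apart.

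Of the 12 proteases, 5 were above 5 FPKM in at least 1 library (*MP1*, *modSP*, *ea*, *CG6361* and *grass*), 6 were detected below that level and *Ser7* was listed at 0 in all 3 libraries. Of the 28 serpins, 14 were above 5 FPKM in at least 1 library, 11 stayed at or under 1.60 FPKM and *Spn2*, *Spn7* and *Spn75F* were listed at 0 throughout. The share of serpins above 5 FPKM was 35.7% (tumor), 42.9% (TME) and 39.3% (control), against 43.2%, 44.5% and 48.7% of all genes listed. For proteases it was 41.7% in both tumor and TME and 25.0% in control.

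**Figure D1:**
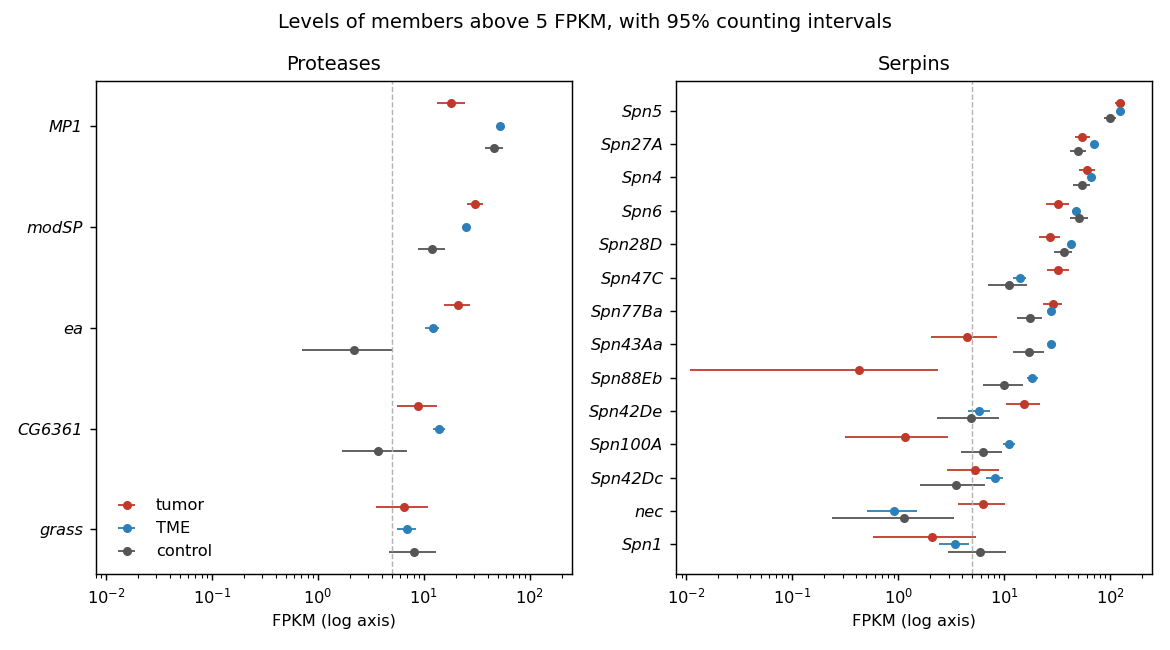
Level in FPKM (log axis) of the 5 proteases and 14 serpins above 5 FPKM in at least 1 library, with 1 point per library and its 95% counting interval; the dashed line marks 5 FPKM. *ea* ranges from 2.17 FPKM in the control to 20.8 in the tumor, while *Spn5* lies between 100.3 and 124.6 FPKM in all 3 libraries.

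The initiating protease of the immune Toll cascade, *modSP*, which relays recognition of microbial cell walls, was at 30.6 (tumor), 24.8 (TME) and 12.0 (control) FPKM. The tumor and TME levels were 2.55 times (95% interval 1.80 to 3.66) and 2.06 times (1.53 to 2.85) the control level, and lay close to each other (ratio 1.24, 1.01 to 1.51). On the FPKM + 1 scale the TME to control ratio was 1.98, under the 2-fold rule. *grass*, the clip protease that acts after ModSP, did not share this pattern. It was at 6.54 (tumor), 6.91 (TME) and 8.07 (control) FPKM, a tumor to control ratio of 0.811 (0.370 to 1.75). *SPE*, the Spätzle-processing enzyme at the end of the immune branch, was at 0.980, 1.68 and 0.499 FPKM, or about 2, 21 and 1 fragments. The cascade from ModSP to Spz was thus measured with its first enzyme well above 5 FPKM in each library and its last below 2.

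*psh* encodes Persephone, the protease that starts Toll signaling when microbial proteases cut it. It was at 1.46 FPKM in the tumor, from about 4 fragments, and was listed at 0 in the TME and the control. The gene beside it on the X chromosome, *CG6361* (Hayan), encodes a related protease that acts in melanization and wound responses. It was at 8.84 (tumor), 14.0 (TME) and 3.68 (control) FPKM, so that the TME was highest (3.79 times the control, 1.96 to 8.40) and the tumor between the others (2.40 times, 1.06 to 5.92, from about 22 fragments against 9). Because these neighbors are related in sequence, the counting could split reads between them.

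The remaining cascade, which cleaves Spz on the ventral side of the embryo, runs from Nudel through Gastrulation defective and Snake to Easter. Of its genes, only *ea* passed 5 FPKM, in the tumor and the TME. *ea* was at 20.8 (tumor), 12.1 (TME) and 2.17 (control) FPKM, from about 49, 174 and 5 fragments. The levels of tumor and TME were both above that of the control, with ratios of 9.60 (3.85 to 30.9) and 5.57 (2.34 to 17.4), and differed by 1.72-fold (1.23 to 2.38). *snk*, the protease that activates Easter in the embryo, was at 0.871 (tumor), 0.498 (TME) and 0.445 (control) FPKM. *gd* was at 1.85, 0.402 and 0.317 FPKM and *ndl* at 0.202, 0.359 and 0.420 FPKM. These 3 upstream genes rested on at most 6 fragments each in the tumor and control libraries. For *gd* the tumor to TME ratio was 4.61 (1.32 to 15.1), from about 6 and 8 fragments, while every other counting interval between libraries for these 3 genes includes 1.

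*MP1* alone of the proteases was called lower in the tumor. It encodes a clip protease of the melanization cascade and was the most abundant protease of the rule in the TME, at 52.9 FPKM, and in the control, at 45.9 FPKM, but was at 18.2 FPKM in the tumor. The TME level was 2.90 times (2.14 to 4.03) and the control level 2.52 times (1.76 to 3.66) that of the tumor. *Sp7*, also called MP2, which acts in the same process, was at 3.76 (tumor), 1.74 (TME) and 4.79 (control) FPKM, below 5 FPKM in each. Its TME to control ratio was 0.363 (0.172 to 0.817).

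Tumor against control, 4 of the 5 proteases above 5 FPKM in either library were called, where 32.6% of 7985 genes were. The 3 called higher were *ea*, *modSP* and *CG6361* (12.4% of all genes were higher) and the 1 called lower was *MP1* (20.2%). Tumor against TME, the 1 protease called was *MP1*, lower in the tumor, where 15.2% of 7294 genes were called, 6.53% as higher and 8.72% as lower. TME against control, *ea*, *CG6361* and *modSP* were called higher and none lower, where 21.7% of 7934 genes were called, 6.39% as higher and 15.3% as lower. The first and the last of these comparisons share the control library, so a low value there enters both. With so few proteases, 1 gene moves each share by a large step.

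Over the proteases above 5 FPKM, the median difference in log2 (FPKM + 1) was 1.07 for tumor against control, where the median over all genes above 5 FPKM was -0.02. It was -0.07 for tumor against TME, where that of all genes was 0.15, and 0.99 for TME against control, where that of all genes was -0.12. On the FPKM scale, the median gene above 5 FPKM in all 3 libraries was higher in tumor than control by 0.11 and than in the TME by 0.17 (log2), and median ratio scaling removes these shifts. The largest of these shifts is a factor of 1.12 in tumor against TME, and no call of a named member changed with median ratio scaling.

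**Figure D2:**
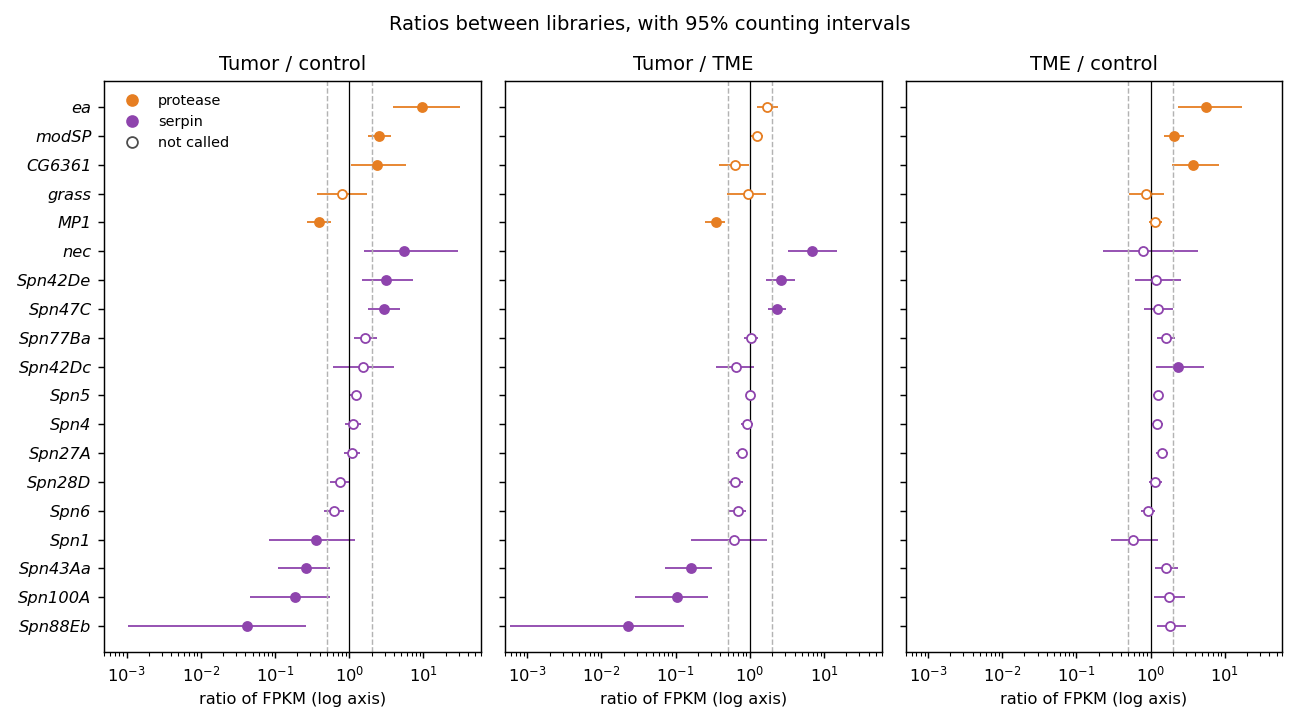
Ratio of FPKM between libraries (log axis) with its 95% counting interval for the 19 members above 5 FPKM; filled points were called and dashed lines mark 2-fold either way. *ea*, *modSP* and *CG6361* lie to the right in tumor over control and TME over control and *MP1* to the left in both tumor panels, and 1 serpin, *Spn42Dc*, lies outside the dashed lines in TME over control.

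Most serpin RNA came from a few genes that were within 2-fold across all 3 libraries. *Spn5* (*Spn88Ea*), a negative regulator of Toll signaling, was the most abundant serpin, at 124 (tumor), 125 (TME) and 100.3 (control) FPKM. *Spn4*, an inhibitor of the proprotein convertase furin, was at 60.9, 65.7 and 53.7 FPKM. *Spn27A*, which restrains Easter in the embryo and prophenoloxidase activation in the larva, was at 54.6, 70.5 and 50.0 FPKM. The tumor to control ratio of *Spn5* was 1.23 (1.04 to 1.46), and its interval excludes 1. The interval of that ratio includes 1 for *Spn4* (ratio 1.13, 0.880 to 1.46) and *Spn27A* (1.09, 0.854 to 1.40). For *Spn27A* the TME was above both, at 1.41 times the control (1.17 to 1.71), with the tumor at 0.775 of the TME (0.646 to 0.924).

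*Spn28D* and *Spn77Ba*, serpins that restrain melanization of particular tissues, were also within 2-fold, as was *Spn6*. *Spn28D*, which limits melanization after wounding, was at 26.9 (tumor), 42.2 (TME) and 36.2 (control) FPKM. *Spn77Ba*, which prevents melanization of the trachea, was at 28.7, 27.6 and 17.3 FPKM. *Spn6* was at 32.2 (tumor), 47.1 (TME) and 51.0 (control) FPKM. Its tumor level was 0.682 of the TME (0.523 to 0.878) and 0.630 of the control (0.457 to 0.863), and both intervals exclude 1. Across *Spn5*, *Spn27A*, *Spn4*, *Spn6*, *Spn28D* and *Spn77Ba*, the largest ratio between any pair of libraries was 1.66, that of *Spn77Ba* in tumor over control (1.18 to 2.36). The 5 tracheal genes summed to 519, 569 and 165 FPKM. Of them, *trh* was at 1.37, 1.24 and 2.97 FPKM and *btl* at 1.21, 1.79 and 2.19 FPKM, both highest in the control, where the sum was lowest. The part of tracheal cells in the ratio of *Spn77Ba* was not tested.

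The serpins *nec*, *Spn42De* and *Spn47C* had their highest level in the tumor and were called against each of the other libraries. *nec* encodes Necrotic, which holds back Persephone and with it Toll signaling in immunity. It was at 6.31 (tumor), 0.912 (TME) and 1.14 (control) FPKM, from about 17, 15 and 3 fragments. The tumor stood above both, at 6.92 times the TME (3.25 to 14.9) and 5.53 times the control (1.60 to 29.5). *Spn47C* was at 32.2 (tumor), 13.9 (TME) and 11.0 (control) FPKM, at 2.31 times the TME (1.73 to 3.05) and 2.93 times the control (1.82 to 4.86). *Spn42De* was at 15.2, 5.81 and 4.84 FPKM, at 2.62 times the TME (1.68 to 4.01) and 3.14 times the control (1.51 to 7.17). With upper quartile scaling the tumor to TME ratio of *Spn47C* was 1.90, under the 2-fold rule. For these 3 genes the counting interval of the TME to control ratio includes 1.

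A further 3 serpins were lower in the tumor than in either other library. *Spn43Aa* was at 4.47 (tumor), 27.9 (TME) and 17.2 (control) FPKM. *Spn88Eb* was at 0.424 (tumor), 18.4 (TME) and 9.96 (control) FPKM, and the tumor value rests on about 1 fragment. *Spn100A* was at 1.16, 11.0 and 6.24 FPKM, with about 4 fragments in the tumor. The TME exceeded the tumor by 6.24 times (3.25 to 13.8) for *Spn43Aa*, 9.54 times (3.68 to 35.3) for *Spn100A* and 43.5 times (7.73 to 1723) for *Spn88Eb*. All 3 were highest in the TME, at 1.62 to 1.85 times the control, which is below the 2-fold rule.

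Most markers of blood cells were also lower in the tumor, as was *MP1*. Of the 7 hemocyte genes, 6 were called lower in the tumor against the TME and 6 against the control, with *crq* the exception in both, and their sum was 30.7, 330 and 346 FPKM. The 3 crystal cell genes (*lz*, *PPO1* and *PPO2*) summed to 7.37, 255 and 182 FPKM, with none of them at 0. The part of these cells in the lower levels of the 3 serpins and of *MP1* in the tumor was not tested.

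The remaining serpins above 5 FPKM were *Spn42Dc* and *Spn1*. *Spn42Dc* was at 5.29 (tumor), 8.11 (TME) and 3.48 (control) FPKM, and the TME was called higher than the control (2.33 times, 1.19 to 5.21). *Spn1*, which acts on the branch of Toll that recognizes fungi, was at 2.09, 3.40 and 5.85 FPKM. It was called lower in tumor than control, from about 4 against 11 fragments, and the interval of that ratio (0.358, 0.0831 to 1.21) includes 1.

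Of the 14 serpins above 5 FPKM in tumor or control, 7 were called, 3 as higher and 4 as lower, beside the 32.6% of all genes given above. Of 13 serpins in tumor against TME, 6 were called, 3 as higher and 3 as lower, where 15.2% of all genes were. Of 13 in TME against control, 1 was called, as higher, where 21.7% of all genes were. The median difference in log2 (FPKM + 1) over these serpins was 0.15 for tumor against control, -0.36 for tumor against TME and 0.31 for TME against control. Whether the classes differ in how often they were called was not tested.

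**Figure D3:**
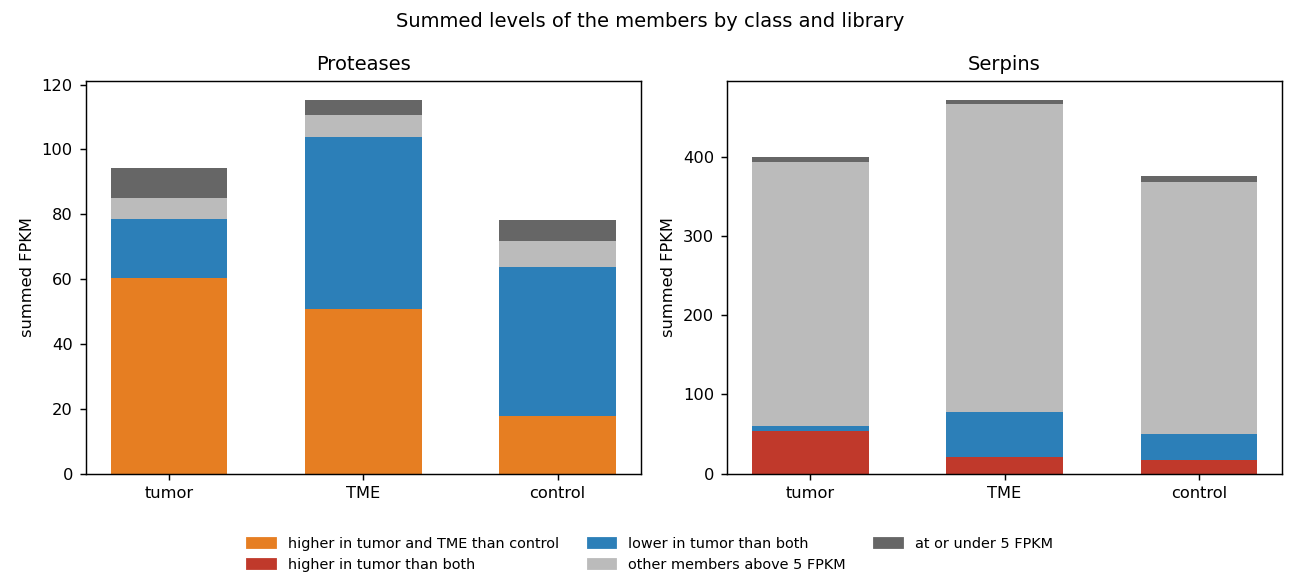
Summed FPKM of the 12 proteases and of the 28 serpins in each library (linear axes from 0), with members stacked by how they were called. *ea*, *modSP* and *CG6361* sum to 17.9 FPKM in the control and 60.3 in the tumor, while *MP1* is at 45.9 and 18.2 FPKM. Most of the serpin sum belongs to the other serpins above 5 FPKM.

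Added over the 28 serpins and the 12 proteases of the rule, serpin RNA exceeded protease RNA in each library. The sums cover unequal numbers of genes, and the proteases are a chosen list, so their ratio holds for these lists only. The 13 clip-family genes outside the rule are not in the protease sum. They summed to 357 (tumor), 227 (TME) and 118 (control) FPKM, with inactive homologs among them. The serpins summed to 399 (tumor), 472 (TME) and 376 (control) FPKM, and the proteases to 94.2, 115 and 78.3 FPKM. The serpin sum was 4.24 times the protease sum in the tumor, 4.09 times (TME) and 4.80 times (control). The protease sum of the tumor was 0.817 of that of the TME, and 1.22 times it without *MP1*. The make-up of the protease sum differed between libraries. *ea*, *modSP* and *CG6361* made 64.0% (tumor), 44.1% (TME) and 22.8% (control) of the protease sum, and *MP1* made 19.4%, 45.9% and 58.6%. Without *MP1* and *Spn5*, the most abundant of each class over the 3 libraries together, the serpin sum was 3.63 times the protease sum in the tumor, 5.57 times (TME) and 8.50 times (control).

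Among serpins, the 3 genes higher in the tumor made 13.5% of the serpin sum there and 4.37% and 4.52% in the TME and the control. The 3 lower genes made 1.51% (tumor), 12.1% (TME) and 8.88% (control) of it. The 4 most abundant serpins of each library made 67.9% (tumor), 65.2% (TME) and 67.9% (control) of the sum. *Spn5*, *Spn4* and *Spn27A* were among the 4 in every library, with *Spn6* as the fourth in the TME and the control. In the tumor *Spn47C* and *Spn6* were level at 32.2 FPKM.

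For pairs of a protease with its known inhibitor, the RNA of the protease was below that of the serpin in every library where both were detected. *ea* was at 0.382 of the level of *Spn27A* in the tumor (0.270 to 0.531), 0.172 in the TME (0.145 to 0.201) and 0.0434 in the control (0.0139 to 0.104). The intervals of the 3 libraries do not overlap. *Spn27A* differed by less than 1.5-fold between libraries, so that this order followed the level of *ea*. *psh* was at 0.231 of the level of *nec* in the tumor (0.0565 to 0.707), and no ratio could be had in the TME and the control, where *psh* was listed at 0. RNA ratios do not give the amounts of active protease and free inhibitor, which depend on secretion and on zymogen cleavage.

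Several members lie beside one another on the chromosomes, as gene families that arose by duplication often do. By the order of protein-coding genes in the RefSeq annotation, 18 of the 40 members fell into 6 runs with at most 2 other genes between neighbors, among them 16 serpins and the pair of *CG6361* and *psh*. Some neighbors shared the library where they were highest, as *Spn5* and *Spn88Eb* did (the TME), *Spn28Da* and *Spn28Db* (the control) and *Spn77Bb* and *Spn77Bc* (the control), and others did not. These shared maxima are weak. *Spn5* was level between tumor and TME (ratio 0.992, 0.877 to 1.12). *Spn28Da* and *Spn77Bb* had about 2 fragments in the control, and *Spn28Db* and *Spn77Bc* about 3. Every counting interval that could be had between libraries for those low genes includes 1. In the run of *Spn43Aa*, *Spn43Ab*, *Spn43Ad* and *nec*, the first was lowest in the tumor and the last highest there. *Spn43Ab* was detected in the tumor alone, at 0.898 FPKM from about 2 fragments, and *Spn43Ad* in the control alone, at 0.870 FPKM from about 2 fragments. *Spn5* and *Spn88Eb* are adjacent, and *Spn5* exceeded *Spn88Eb* in each library while only *Spn88Eb* was called.

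In the run of *Spn4*, *Spn42Db*, *Spn42Dc*, *Spn1* and *Spn42De*, the first was within 2-fold across libraries, *Spn42Dc* was highest in the TME, *Spn1* in the control and *Spn42De* in the tumor. *Spn42Db* was at 1.23 (tumor) and 0.321 (TME) FPKM and was listed at 0 in the control. *Spn77Ba* stood above its neighbors *Spn77Bb* and *Spn77Bc*, which did not pass 1.31 FPKM in any library. *Spn28Da* and *Spn28Db* were listed at 0 in the tumor and were at 0.715 and 0.599 FPKM in the TME and 0.993 and 1.60 FPKM in the control. Related neighbors may share reads, and how the counting treated such reads is not given in the sources used here.

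**Figure D4:**
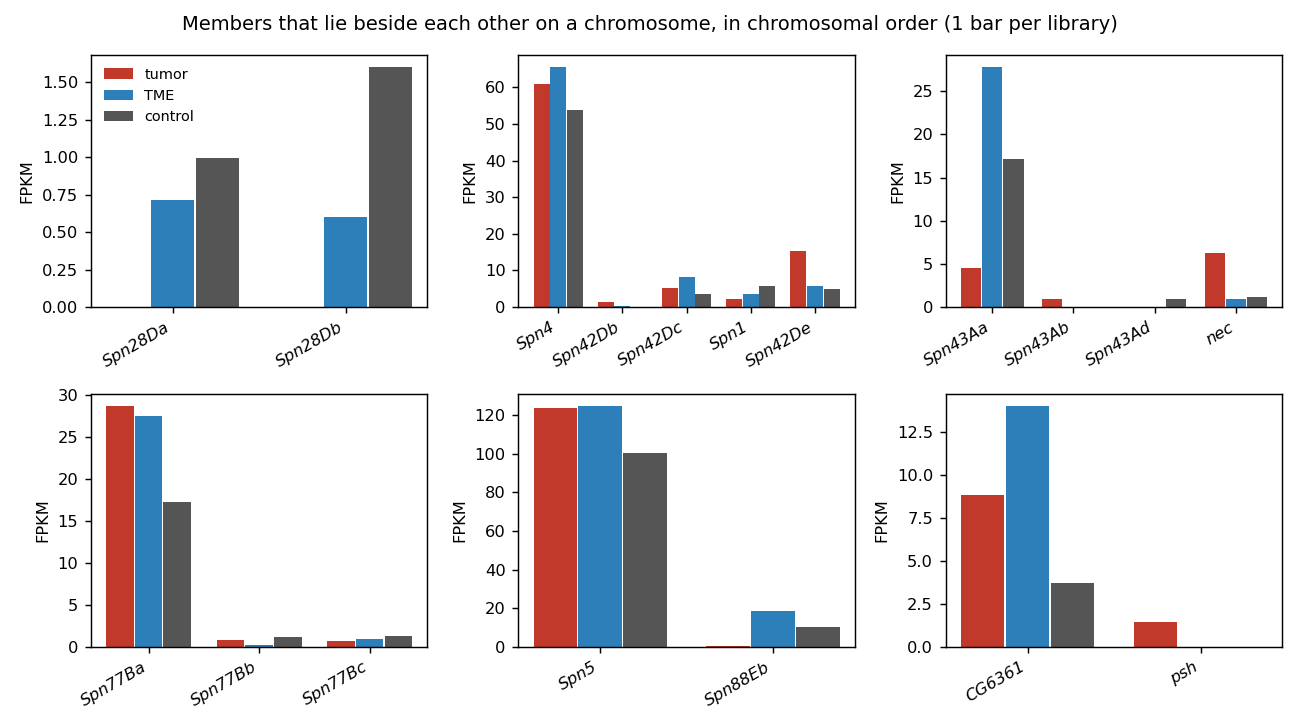
FPKM in each library (linear axes from 0, scaled separately) of the 18 members that lie in 6 runs of neighboring genes, drawn in chromosomal order. *Spn43Aa* at 4.47 FPKM and *nec* at 6.31 FPKM in the tumor are the lowest and the highest of their 3 libraries within a single run.

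The remaining low members were *Spn31A*, *Spn85F*, *Spn53F* and *Spn3*, each at or under 1.27 FPKM. *Spn85F* was at 1.27 (tumor) and 0.783 (control) FPKM, and at 0.0418 in the TME, where its level rests on about 1 fragment. The serpins at or under 5 FPKM had at most 5 (tumor), 18 (TME) and 3 (control) fragments. Among them the counting interval excluded 1 for *Spn85F* alone, in tumor over TME (30.3, 3.39 to 1434) and in TME over control (0.0534, 0.00102 to 0.665), with 1 fragment in the TME behind both. The TME library, the deepest, had 23 serpins above 0, the tumor 20 and the control 22.

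The enzymes on which the melanization cascade acts were compared beside its proteases. The prophenoloxidase genes *PPO1* (listed as *proPO-A1*) and *PPO2* (listed as *PO45*), which are made by crystal cells, were at 1.74 and 1.02 FPKM in the tumor. They were at 119 and 131 FPKM in the TME and at 78.0 and 103 FPKM in the control. *yellow-f*, which acts later in melanin synthesis, was at 0.880, 21.2 and 31.0 FPKM. These 3 genes were called lower in the tumor than in either other library. *ple* and *Ddc*, which make dopa and dopamine in epidermis and neurons, went the other way against the control. *ple* was at 23.6, 9.57 and 8.49 FPKM and was called higher in the tumor in both comparisons. *Ddc* was at 38.9, 48.4 and 17.7 FPKM and was called higher in tumor and TME than in the control. The crystal cell transcription factor gene *lz*, which the eye disc also uses, was at 4.60, 5.22 and 1.53 FPKM.

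Clip-family genes outside the rule were read from a list of 13. Of these, 5 were above 5 FPKM in tumor or control, and 3 were called higher in the tumor and 1 lower, where 12.4% and 20.2% of all genes were. *scaf*, which encodes a protease homolog with no catalytic activity, was at 196 (tumor), 41.1 (TME) and 27.3 (control) FPKM. *mas*, a further inactive homolog, which acts in muscle attachment, was at 50.3, 32.4 and 12.5 FPKM. *CG9733* was at 13.2, 8.73 and 3.81 FPKM. *CG3505* was at 2.13, 12.8 and 11.9 FPKM and was the gene called lower. *CG5390* was at 87.8, 125 and 57.2 FPKM, the most abundant of the list in the TME and the control, and was called in TME against control alone (2.18 times, 1.82 to 2.64). Against the TME, *scaf* was called higher in the tumor and *CG3505* lower. In TME against control, *mas* (2.58 times, 2.06 to 3.29) and *CG9733* (2.29 times, 1.17 to 5.13) were called higher along with *CG5390*. None of the list was lower there, where 6.39% of all genes were called higher and 15.3% lower.

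Genes at either end of the cascades gave context for the proteases. Over all genes, 32.6% were called in tumor against control, 15.2% in tumor against TME and 21.7% in TME against control. The shares called higher were 12.4%, 6.53% and 6.39% in the same order. Of the 4 recognition genes above 5 FPKM, *PGRP-SA*, *GNBP1* and *GNBP2* were called higher in tumor than control, and *GNBP1*, *GNBP2* and *GNBP3* in the TME than in the control. *GNBP3* was at 46.6, 75.7 and 31.9 FPKM in tumor, TME and control. Of 4 Toll ligand genes above 5 FPKM, *spz3* (59.5, 19.0 and 15.4 FPKM) and *spz5* (6.79, 3.11 and 0.304 FPKM) were called higher in the tumor than in either other library, and *spz* itself (2.60, 30.9 and 33.0 FPKM) lower. *spz5* rested on about 23 (tumor), 64 (TME) and 1 (control) fragments. Its tumor level was 22.4 times the control (3.63 to 922) and 2.18 times the TME (1.29 to 3.57). None of the 7 genes of the Toll receptor and its intracellular relay was called in any of the 3 comparisons, but the receptor gene *Tl* lay just short of the rule. It was at 22.2, 22.3 and 43.4 FPKM, with ratios to the control of 0.511 (0.425 to 0.612) in the tumor and 0.514 (0.456 to 0.581) in the TME, and the tumor ratio was 0.474 with median ratio scaling, past the rule. *pll*, the kinase gene of the relay, was at 1.99 times the control in the TME (1.33 to 3.09) and at 2.06 times with that scaling. The most abundant of the 7, *cact* and *dl*, went opposite ways within the rule. *cact* was at 59.8, 92.0 and 96.6 FPKM, with tumor ratios of 0.619 (0.513 to 0.744) to the control and 0.650 (0.557 to 0.755) to the TME. *dl* was at 65.5, 63.4 and 45.3 FPKM, with ratios to the control of 1.44 (1.20 to 1.75) in the tumor and 1.40 (1.20 to 1.64) in the TME. The 7 genes lay on both sides of 0, and their median difference in log2 (FPKM + 1) was 0.11 for tumor against control and -0.01 for each other comparison. The genes of the eggshell cue that acts before Nudel and Gastrulation defective, *pip*, *wbl* and *sll*, were not called either, though *pip* was at 0.534 of the control in the tumor and at 0.495 with median ratio scaling. Of the proprotein convertases, *Fur1* was at 19.3, 18.1 and 16.8 FPKM and *Fur2* at 31.3, 36.7 and 31.4 FPKM, beside the near-level *Spn4*, while the neuronal *amon* was at 0.142, 0.493 and 15.0 FPKM. Glial genes summed to 27.9, 25.4 and 52.8 FPKM and antennal genes to 188, 188 and 117 FPKM. Both sums join genes that differ. *moody* was at 20.6, 9.69 and 9.89 FPKM, *repo* at 3.06, 12.1 and 27.5 FPKM and *gcm* at 4.21, 3.60 and 15.5 FPKM. *hth* was at 108, 156 and 99.7 FPKM, *Dll* at 65.0, 26.0 and 14.8 FPKM and *ss* at 14.7, 5.85 and 2.08 FPKM.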

How the data were processed

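Reads of TruSeq libraries run on a MiSeq were aligned by the authors to *Drosophila* release 5.2 and turned into FPKM with the Tuxedo suite, and these FPKM values are what was deposited. The suite version, the annotation and the handling of reads that related genes share were not given in the sources used here. Extraction is by Trizol in the labels and by Qiagen kits in the methods. A date stands in the tumor and TME column headings but not in that of the control. Columns were matched to samples by their headings, and all 3 were used.

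Depth was estimated from the steps of FPKM over 6562 genes with 1 annotated transcript of 400 to 4000 nt in the Ensembl annotation (release 115, BDGP6), which is not the build the authors mapped to and was used for lengths and symbols only. The share of low values lying no more than 0.1 from a whole fragment count was 82.5% (tumor), 76.4% (TME) and 81.8% (control), against 20% by chance. Fragments of a gene were computed from its shortest transcript, the lower estimate. At 5 FPKM, a transcript of 2000 nt has about 17.0, 103 and 16.5 fragments. Of the 40 members, 39 matched by identifier and 1 (*Spn4*) by a RefSeq synonym. Neighbors were taken from the order of genes in RefSeq (Release 6), with no coordinates.

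No p-value or standard deviation was computed, since there is 1 library per condition. A value of 0 in the table can be a failed estimate, and no ratio to 0 was taken. Genes listed at 0 in the lower library count as called in the shares over all genes. The naming rule took all members above 5 FPKM in 1 library or more, all proteases, *nec* and *Spn27A*, and up to 4 genes of each other list, by mean FPKM. Further low serpins, *ple*, *CG9733*, *spz5*, *pll* and single markers fall outside this rule and were named after their values were seen. The members and the gene lists were chosen with earlier results of these data known. The depth fit, the call and the interval were tested on simulated data. Alternatives covered the ratio, the floor, the scaling, a pseudocount of 1 and the sums without the most abundant member. The software was scipy 1.17.1, numpy 2.4.6, pandas 2.3.3 and matplotlib 3.10.9 under Python 3.11.15.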

Additional observations from a re-analysis of the deposited data

How the results depend on the processing

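No paired analysis was possible because each condition has 1 library. The share of all genes called was taken only at the main rule, with the floor of 5 FPKM and the ratio of 2. The counts at other settings therefore have no such share beside them, and they show only how the member counts move. Counts of called proteases were, for tumor against control, 1 at a threshold of 3-fold and 7 with no floor. For tumor against TME they were 3 at 1.5-fold, 0 at 3-fold, and 4 with no floor or a floor of 1 FPKM, of which 3 were higher in the tumor and 1 lower, against 0 and 1 with the floor of 5 FPKM. For TME against control they were 5 with no floor or a floor of 1 FPKM. Counts of called serpins were, for tumor against control, 14 with no floor and 3 with a floor of 10 FPKM, and for tumor against TME 15 with no floor. For TME against control they were 6 at 1.5-fold, 0 at 3-fold, 8 with no floor, 4 with a floor of 1 FPKM, 0 with a floor of 10 FPKM and 2 with upper quartile scaling.

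Without *MP1*, the protease sum of the tumor was 2.34 times that of the control and 1.22 times that of the TME, where with it the tumor was at 0.817 of the TME and the direction turned. TME over control was 1.93 without *MP1*. The serpin sum in tumor over TME was 0.754 with median ratio scaling. Among ratios of the 19 members above 5 FPKM, none of the 57 changed its call with median ratio scaling. With upper quartile scaling *Spn47C* (tumor over TME, 1.90) lost its call and *Spn88Eb* (TME over control, 2.05) gained one, and with FPKM + 1 *modSP* (TME over control, 1.98) lost its call. For the Toll receptor and relay and for the eggshell cue, the scalings were added after the data were seen. Median ratio and upper quartile scaling called *Tl* (tumor over control) and *pll* (TME over control), and *pip* (tumor over control), and upper quartile scaling also *sll* (tumor over control, 0.492). No ratio of a called member turned direction under these scalings or with FPKM + 1. Below about 5 FPKM the depth of the tumor and control libraries leaves fewer than 17 fragments for a transcript of 2000 nt, which limits comparisons of the low serpins.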
